A study of Hordeum vulgare with 18 samples.

Results

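miR319 is a conserved plant miRNA family, and its members here were all deposited sequences whose annotated precursor name is MIR319 with or without a locus letter. By this rule 91 distinct sequences of 7252 belonged to the family over the 3 deposited tables: 72 of 4750 in the 1 h table, 68 of 4671 in that of 3 h and 67 of 4603 in that of 6 h, with 49 listed in all 3 tables. Small RNAs were sequenced from whole shoots of 2-week-old plants of barley (Hordeum vulgare), spring line Rolap, with no transgene or mutation named in the labels. Plants were held at 35.5 °C (heat) or at 21 °C (control) for 1, 3 or 6 h, with 3 libraries in each of the 6 groups, which the labels call biological replicates. The design asks how the shoot's miRNAs differ between heat and control at each duration. The 3 heat and 3 control libraries of 1 h and the heat libraries of 3 h were on lane 1 of the sequencer. The control libraries of 3 h and all 6 libraries of 6 h were on lane 2, so at 3 h the lane and the treatment cannot be told apart.

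In Arabidopsis, miR319 pairs with mRNAs of CINCINNATA-class TCP transcription factors and directs their cleavage. These TCP proteins restrain cell division and promote maturation in growing leaves, so plants with excess miR319 make large, crinkled leaves. Each miRNA is cut from a stem-loop precursor, with the abundant strand of miR319 coming from the 3′ arm and its partner strand from the 5′ arm. miR319 is related in sequence to miR159, which targets GAMYB-like MYB mRNAs. The target mRNAs were not measured in these libraries, and miRNA counts cannot be used to check the labelled tissue against marker genes.

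The tables held 1449374 to 3214221 counts per library, 5.11% to 9.02% of the library totals that the deposited RPM values imply. miR319 took 15795 to 58616 of these counts, or 1.06% to 2.52% of a table. It ranked 7th to 11th among the 166 to 180 numbered families. Levels below are CPM, that is, counts scaled to a common total of annotated miRNA counts per table with TMM factors, so that each level is relative to the other annotated miRNAs. Control 3 h replicate 1 stood apart in its abundant families, with miR159 at 9629 CPM in the scaling of all 18 libraries, against 64872 and 62160 CPM in the other control libraries of 3 h. Differences between groups are log2 fold changes of heat over control ± SE from edgeR's quasi-likelihood test, with p-values adjusted by Benjamini-Hochberg over all sequences or families tested at that duration, and called under 0.05.

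The sequences below are those on which the results turn. They are printed 5′ to 3′ as deposited, in DNA letters, with the seed (bases 2 to 8), which nucleates pairing to a target, in capitals for the arm forms and miR159. The precursor stretch, which is not an annotated mature miRNA, is left in lower case. The first and most abundant is the 22-nt form, followed by its versions 1 and 2 bases shorter at the 3′ end, and then by the 21-nt mature 3′ form with the same 2 shorter versions.
miR319 22-nt form: cTTGGACTgaagggtgctccct
22-nt form, 1 base short: cTTGGACTgaagggtgctccc
22-nt form, 2 bases short: cTTGGACTgaagggtgctcc
miR319 21-nt mature 3′ form: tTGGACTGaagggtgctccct
21-nt mature 3′ form, 1 base short: tTGGACTGaagggtgctccc
21-nt mature 3′ form, 2 bases short: tTGGACTGaagggtgctcc
5′-arm form: aGAGCGTCcttcagtccactc
5′-arm form, 1 base short: aGAGCGTCcttcagtccact
precursor stretch: agctgccgactcattcatcca
precursor stretch, 1 base short: agctgccgactcattcatcc
miR159, most abundant sequence: tTTGGATTgaagggagctctg

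The 22-nt form held 87.3% of all 634669 miR319 counts. It matched a rice MIR319b precursor in the authors' annotation, and it starts 1 base before the annotated 21-nt mature 3′ form, which held 6.84%. The earlier start shifts the seed, so that 19 sequences with 89.6% of the counts shared the seed TTGGACT and 17 sequences with 8.33% shared TGGACTG. Beside the most abundant miR159 sequence, the seed of the 22-nt form was identical at 6 of 7 bases, and that of the 21-nt mature form at 3 of 7. Over 21 bases compared from their first base, the 22-nt form and that miR159 sequence were identical at 16. The 21-nt mature form, set against the miR159 sequence from base 2 of the latter, was identical at 16 of 20 bases. No miR319 member was also annotated to another family, so the split between miR159 and miR319 is that of the authors' annotation. No member carried a barley annotation. The names came from 9 to 11 other plant species per table, and a locus letter therefore names a precursor of another species and not a barley gene.

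By sequence, 45 members with 98.7% of the counts were 3′-arm forms that differ at their ends. Another 10 members, 1.06% of the counts, were 5′-arm forms. A group of 10 members with 0.146% of the counts shared at least 13 bases with a stretch of the soybean MIR319a and MIR319b precursors that lies in neither arm form. The 26 others were variants of the 3′ arm with other bases or rare precursor fragments, and the largest class of these, 16 sequences, held 0.0728%. In the annotation, 66 of 72 members at 1 h, 59 of 68 members at 3 h and 60 of 67 members at 6 h carried the match type for a precursor rather than for a mature arm, a class that includes the 22-nt form and many other 3′-arm forms.

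The miR319 family total was higher under heat after 6 h. It stood at 19228, 24372 and 18464 CPM in the heat libraries of 6 h, against 14831, 12392 and 10870 CPM in the control libraries. The lowest heat library lay above the highest control library, and the means were 20688 ± 3214 and 12697 ± 1998 CPM (SD, n = 3 each). Ranges were also apart, in either direction, in many other families and in 33.2% of all 675 sequences tested at 6 h. The log2 fold change was 0.70 ± 0.17 with adjusted p = 0.0310, at a duration at which 16.2% of the 74 families tested were called and 9.46% were called higher. The call was lost when any 1 library other than heat 6 h replicate 3 was left out, with adjusted p of 0.0669 without heat replicate 1, 0.0967 without heat replicate 2, and 0.0719, 0.134 and 0.116 without control replicates 1, 2 and 3. The fold change then lay between 0.59 and 0.83. The call was also lost with scaling to the implied library totals, without the 22-nt form, and over the annotated mature arms alone (adjusted p from 0.0557 to 0.159). In bulk shoots, a change in the number of cells that hold a miRNA and a change in its level per cell cannot be told apart.

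After 3 h the family total was 19141, 19177 and 15408 CPM under heat, against 14976, 13713 and 10380 CPM in control libraries. These ranges did not overlap either, but ranges were apart, in either direction, in many other families and in 25.9% of all 713 sequences tested at 3 h. Heat also lay above control in miR166, miR5051, miR5083, miR5168 and miR9779. The log2 fold change of 0.46 ± 0.19 was not called (adjusted p = 0.235), where 2.67% of 75 families were. It was 0.58 (adjusted p = 0.165) without control 3 h replicate 1. After 1 h the heat libraries held 14568, 18650 and 19288 CPM and the control libraries 15826, 14550 and 12405 CPM. These ranges overlapped, and the log2 fold change was 0.30 ± 0.19 (adjusted p = 0.525).

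**Figure D1:**
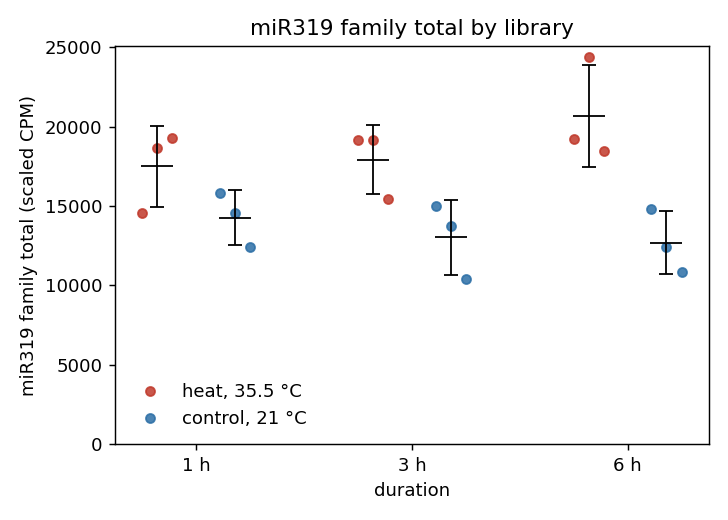
miR319 family total in scaled CPM (vertical axis) in each library (points) by duration, heat left of control, with the group mean (wide bar) and SD (error bar, n = 3). The heat and control points separate at 3 and 6 h, as those of many other families did, and overlap at 1 h.

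Fitted over all 18 libraries, on the 2720 sequences that the 3 tables share, the mean of the 3 heat effects on the family total was 0.50 ± 0.11 (adjusted p = 0.00514), with 12.2% of 74 families called in that contrast. That mean includes the effect at 3 h, where the lane and the treatment cannot be told apart. The heat effect at 6 h minus that at 1 h was 0.54 ± 0.28 (adjusted p = 0.513), so a growth of the effect with duration was not resolved. Within lane 1, the heat libraries of 3 h minus those of 1 h gave -0.01 ± 0.20 (adjusted p = 0.976). Within lane 2, the control libraries of 6 h minus those of 3 h gave -0.17 ± 0.20 (adjusted p = 0.769).

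Enough counts to be tested were held by 16 of the 72 members of the 1 h table, 19 of the 68 of 3 h and 17 of the 67 of 6 h. This count filter can be met by the libraries of 1 group alone, so a form can become testable because it is high in that group. At 1 h, 1 of 16 was called, lower under heat, where 1.76% of all 740 sequences tested were called (1.22% lower). At 3 h, 4 of 19 were called, 2 higher and 2 lower, where 4.35% of all 713 were called (0.982% higher, 3.37% lower). At 6 h, 7 of 17 were called, 6 higher and 1 lower, where 12.1% of all 675 were called (6.07% higher, 6.07% lower). The median log2 fold change of the tested members was 0.27, 0.47 and 0.71 at 1, 3 and 6 h, against 0.07, -0.08 and -0.003 over all sequences tested. The heat range lay above the control range for 3 of 16, 6 of 19 and 11 of 17 tested members at 1, 3 and 6 h, where 8.78%, 10.7% and 16.6% of all sequences tested did so. Ranges were apart in either direction for 33.2% of all sequences at 6 h. The tested members are mostly end variants of the same arms, so these counts and medians are not of independent sequences. The tested sets also differed between durations, so the medians do not follow 1 set of sequences over time.

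The 22-nt form made up most of the family total. It stood at 16829, 21236 and 15722 CPM in the heat libraries of 6 h, against 12863, 10629 and 9307 CPM in the control libraries, so that all 3 heat libraries were higher. Its log2 fold change at 6 h was 0.71 ± 0.16 (adjusted p = 0.0247), and it was 0.29 ± 0.22 (adjusted p = 0.733) at 1 h and 0.47 ± 0.23 (adjusted p = 0.308) at 3 h. The call at 6 h was lost without any 1 library other than heat replicate 3, with adjusted p from 0.05001 to 0.119. The 21-nt mature 3′ form held 1227, 1484 and 1199 CPM in the heat libraries of 6 h, against 1123, 984 and 912 CPM in the control libraries. These ranges also did not overlap, but the form was not called at any duration, with log2 fold changes of 0.33 ± 0.24, 0.18 ± 0.24 and 0.37 ± 0.15 at 1, 3 and 6 h (adjusted p = 0.709, 0.697 and 0.149).

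The share of 3′-arm reads that start with the extra base of the 22-nt form was 91.0%, 91.1% and 90.4% in the heat libraries of 6 h, against 89.9%, 89.0% and 88.6% in the control libraries. At 3 h it was 91.5%, 91.8% and 91.4% under heat, against 90.3%, 91.0% and 88.8% in control. Heat was higher in every library at both durations, by 1.67 and 1.54 percentage points on average. The exact two-sided permutation test gave p = 0.1 for each, the smallest p that 3 libraries against 3 allow, and 0.258 after adjustment over 93 shares tested. At 1 h the means were 90.8% in heat and 90.8% in control libraries, with overlapping ranges.

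The widest differences among the 3′-arm forms were in those with a shortened 3′ end. The 22-nt form 2 bases short stood at 53.0, 91.1 and 92.5 CPM in the heat libraries of 6 h, against 10.98, 4.97 and 6.88 CPM in the control libraries. These values rest on 488 counts under heat and 35 in control, and the control libraries alone would not have met the count filter. Every heat library was well above every control library, and the log2 fold change was 3.36 ± 0.38 (adjusted p = 0.00158). At 3 h the form held 47.1, 59.3 and 30.4 CPM under heat, against 3.64, 13.4 and 3.83 CPM in control libraries (2.70 ± 0.54, adjusted p = 0.0261). These values rest on 297 counts under heat and 45 in control, and the control libraries alone would again not have met the count filter. At 1 h it held 19.8, 19.3 and 46.1 CPM under heat, against 9.62, 7.72 and 7.84 CPM in control libraries, and the test did not call it (1.76 ± 0.43, adjusted p = 0.0840). Heat and control ranges were thus apart at all 3 durations. The call at 3 h was lost without heat replicate 1 (adjusted p = 0.0968), heat replicate 2 (0.0845) or control replicate 3 (0.0764), whereas the call at 6 h held under all 13 alternatives. At 1 h the form was called without heat replicate 2 (adjusted p = 0.0437), by DESeq2 (adjusted p = 0.0186) and with no filter on low counts (adjusted p = 0.0127).

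The 22-nt form 1 base short held 342, 461 and 558 CPM in the heat libraries of 6 h, against 218, 188 and 118 CPM in the control libraries (1.38 ± 0.27, adjusted p = 0.0136). At 3 h it held 426, 428 and 346 CPM under heat, against 204, 180 and 114 CPM in control (1.27 ± 0.30, adjusted p = 0.0446). Ranges were apart at each duration, including 1 h, where the value of 0.46 ± 0.24 was not called (adjusted p = 0.550). The call at 3 h was lost without any 1 library other than control replicate 1, with adjusted p from 0.0724 to 0.184, and without library factors (adjusted p = 0.0859), and that at 6 h without control replicate 2 (adjusted p = 0.0609).

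The shortened versions of the 21-nt mature form were also higher at 6 h. The version 1 base short held 196, 264 and 232 CPM in the heat libraries, against 100, 141 and 134 CPM in the control libraries (0.89 ± 0.20, adjusted p = 0.0247). That call was lost without any 1 library other than heat replicate 1, with adjusted p from 0.0526 to 0.111. The version 2 bases short held 8.32, 23.7 and 18.1 CPM in the heat libraries, against 5.17, 1.24 and 0.688 CPM in the control libraries (2.78 ± 0.73, adjusted p = 0.0425). It rests on 105 counts under heat and 11 in control, and it passed the count filter through heat libraries alone. Its call was lost without heat replicates 2 or 3 or control replicates 2 or 3 (adjusted p from 0.0810 to 0.158) and in the fit of all 18 libraries (adjusted p = 0.0759). At 1 h this version had too few counts to be tested, and at 3 h it stood at 2.06 ± 0.89 (adjusted p = 0.238).

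Besides the 22-nt and 21-nt forms described above, the abundant forms that keep or extend the 3′ end were not called at any duration. The 22-nt form with 1 more base at its 3′ end was at 0.28 ± 0.35 at 6 h, and the 21-nt mature form with 1 more base at 0.27 ± 0.24. The 2 abundant forms that start 1 and 2 bases inside the mature form but keep its 3′ end were at 0.61 ± 0.25 and 0.64 ± 0.29 at 6 h (adjusted p = 0.149 and 0.194). For both, the heat range lay above the control range at 6 h.

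**Figure D2:**
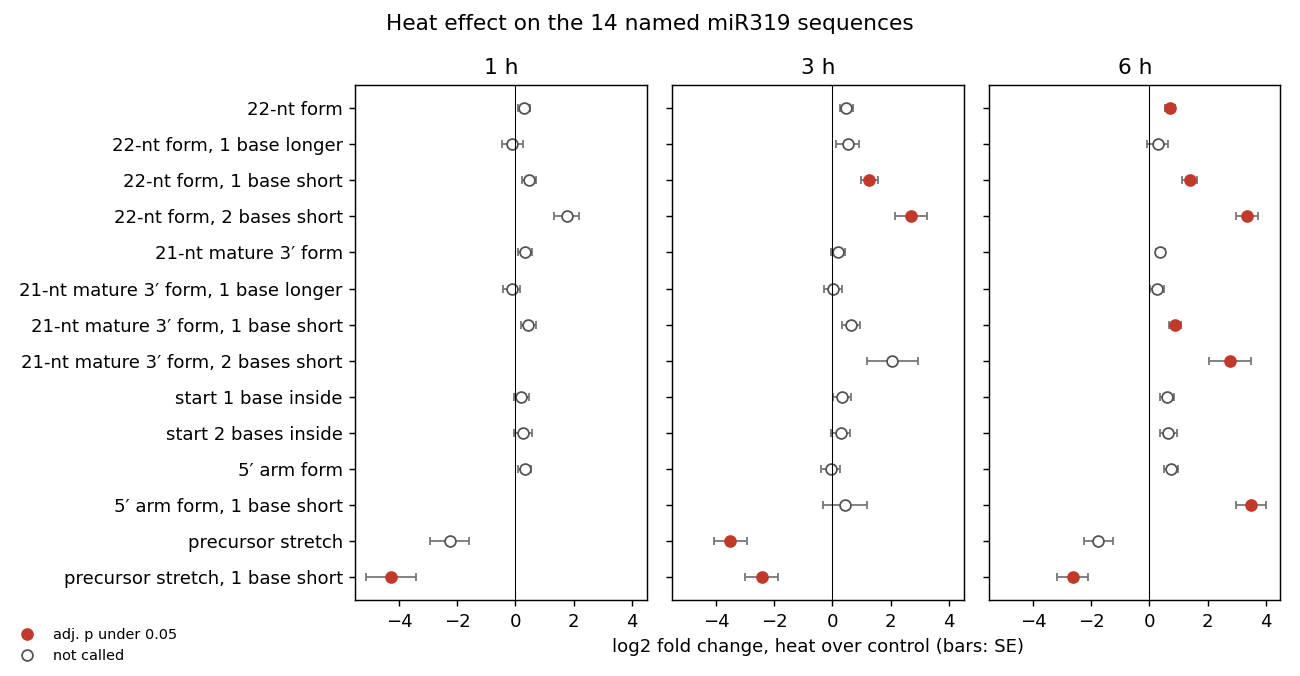
Log2 fold change of heat over control (horizontal axis, bars are SE) for the 14 named miR319 sequences (rows) at 1, 3 and 6 h (panels), with filled points for adjusted p under 0.05 and open points for sequences tested and not called. At 6 h the filled points to the right are the 22-nt form and the shortened forms, and the precursor stretch lies to the left at all 3 durations.

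Counted over the whole 3′ arm, reads that end 2 or more bases short of the mature 3′ end made up 0.395%, 0.543% and 0.631% in the heat libraries of 6 h, against 0.133%, 0.0612% and 0.0839% in the control libraries. At 3 h the shares were 0.322%, 0.372% and 0.326% under heat, against 0.0781%, 0.116% and 0.0917% in control. At 1 h they were 0.174%, 0.133% and 0.310% under heat, against 0.0920%, 0.112% and 0.0974% in control. The heat libraries were higher at each duration, with exact p = 0.1 and 0.258 after adjustment over 93 shares. The summed level of these reads was 36.4 ± 19.97 CPM in heat and 14.1 ± 2.08 CPM in control libraries of 1 h (SD, n = 3 each). After 3 h it was 60.4 ± 10.6 CPM in heat and 12.2 ± 3.21 CPM in control libraries. After 6 h it was 106 ± 28.4 CPM in heat and 11.9 ± 6.50 CPM in control libraries. The control means thus lay between 11.9 and 14.1 CPM, and no heat mean lay in that range.

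Reads ending exactly 1 base short were more common, at 3.50% ± 0.86 of 3′-arm reads in heat and 2.48% ± 0.29 in control libraries of 6 h, and at 3.15% ± 0.15 in heat and 2.08% ± 0.14 in control libraries of 3 h (SD, n = 3 each). Heat and control ranges were apart at both durations. At 1 h they overlapped, with 3.04% ± 0.24 in heat and 2.70% ± 0.18 in control libraries. Reads that extend past the mature 3′ end differed in the other direction, at 0.752% ± 0.069 in heat and 0.976% ± 0.023 in control libraries of 6 h, again with ranges apart. At 3 h these shares overlapped, with 0.676% ± 0.162 in heat and 0.850% ± 0.262 in control libraries, and at 1 h they were apart, with 0.581% ± 0.051 in heat and 0.771% ± 0.134 in control libraries. Each share with ranges apart had exact p = 0.1, and 0.258 after adjustment. All these shares are of 3′-arm reads of the same library and so do not depend on the scaling between libraries.

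**Figure D3:**
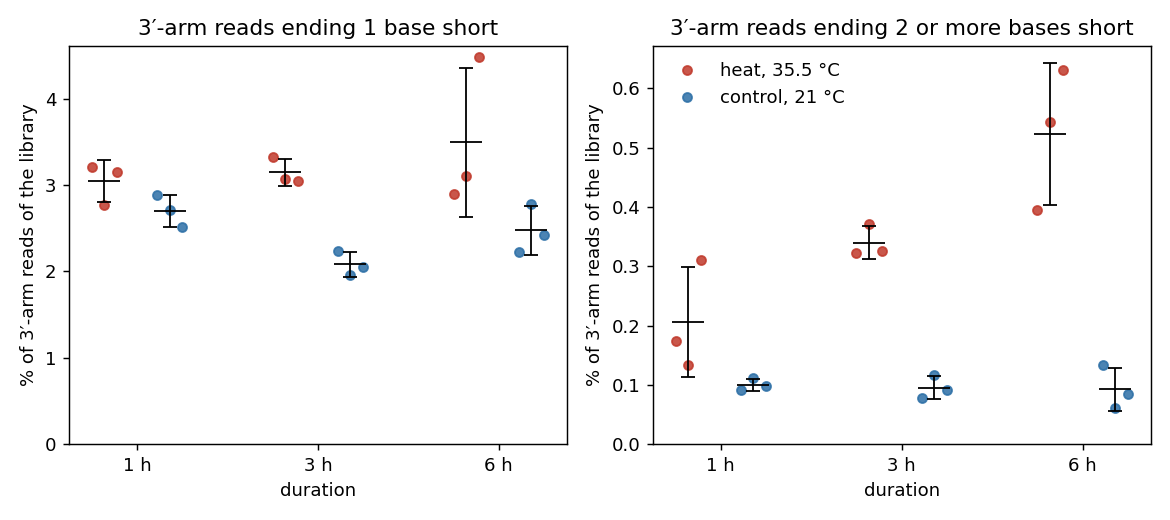
Share of 3′-arm miR319 reads (vertical axes, % of the library's 3′-arm reads) that end 1 base short (left) and 2 or more bases short (right) of the mature 3′ end, per library (points) by duration, heat left of control, with mean and SD (n = 3). In the right panel every heat library lies above every control library at each duration.

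A related measure, the log2 ratio of a shorter version to the full sequence, was taken in miR319 and other families. The full sequence was the most abundant one annotated to that family alone, beside the versions of it 1 and 2 bases shorter. The shorter version needed at least 60 counts over the 6 libraries of a duration, with heat and control counts added. A shorter version can therefore enter because it is high in 1 group, which can favour large differences. The 22-nt form 2 bases short held 45 control counts at 3 h and 35 at 6 h. It thus reached this floor at 3 and 6 h only with its heat counts, 297 and 488. For miR479 the full sequence was the rarer one, with 42 counts at 1 h against 1805 for the version 1 base short. For miR319 the mean log2 ratio of the version 2 bases short to the full 22-nt form was -7.86 in heat and -10.49 in control libraries of 6 h, a difference of 2.63. The 8 other families that could be measured at 6 h had differences of 0.004 to 1.43, with a median of 0.53. At 3 h the difference was 2.40 for miR319, against a median of 0.19 and a highest value of 1.35 in 9 other families. At 1 h it was 1.33, against a median of 0.23 in 11 other families, 1 of which was higher. For the version 1 base short, miR319 stood at 0.68 at 6 h, where 5 of 20 other families were at or above it, at 0.82 at 3 h, where 1 of 21 was, and at 0.19 at 1 h, where 9 of 21 were. All 8 families measured at 6 h for the version 2 bases short had a difference above 0, and 5 of them had ranges that did not overlap. This comparison between families is a description of these libraries and of the versions that met the count floor, with no test.

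**Figure D4:**
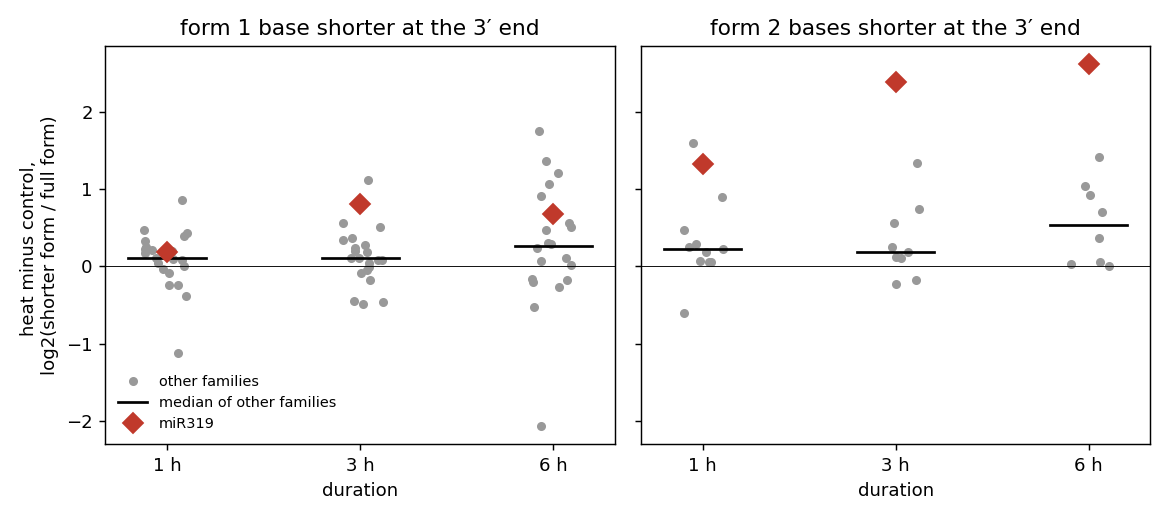
Heat minus control difference (vertical axis) in the mean log2 ratio of a version 1 (left) or 2 (right) bases shorter at the 3′ end to the most abundant sequence annotated to the family alone, by duration, for miR319 (diamonds) and each other family that could be measured (circles, with their median as a bar). In the right panel miR319 lies above all circles at 3 and 6 h and below 1 at 1 h.

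On the 5′ arm, the partner strand, the full 21-nt form was not called at any duration. It held 207, 357 and 287 CPM in the heat libraries of 6 h, against 203, 164 and 144 CPM in the control libraries (0.74 ± 0.24, adjusted p = 0.0788). Without heat 6 h replicate 1 it was called, at 0.93 (adjusted p = 0.0464), as it was by DESeq2 (adjusted p = 0.0386) and with no filter (adjusted p = 0.0395). The version 1 base short at the 3′ end rose at 6 h, with 27.2, 22.0 and 26.2 CPM under heat, against 0.646, 3.73 and 2.06 CPM in the control libraries (3.50 ± 0.52, adjusted p = 0.00402). It rests on 157 counts in heat and 10 in control libraries, and it passed the count filter through heat libraries alone. The call held under all 13 alternatives. At 3 h the groups overlapped, with 10.95, 3.82 and 9.06 CPM under heat and 13.01, 2.76 and 2.13 CPM in control libraries (0.44 ± 0.75, adjusted p = 0.762). At 1 h it was too sparse to be tested, at 2.74 to 3.95 CPM under heat and 0.373 to 1.93 CPM in control libraries. The summed 5′ arm made up 1.51% ± 0.25 of miR319 counts in heat and 1.37% ± 0.02 in control libraries of 6 h, with overlapping ranges.

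The precursor stretch was lower under heat, opposite in direction to the arm forms that were called. The version 1 base short held 0, 0 and 1.96 CPM in the heat libraries of 1 h, against 12.2, 14.2 and 14.6 CPM in the control libraries, or 5 against 111 counts (-4.26 ± 0.86, adjusted p = 0.0192). A count of 0 in those heat libraries allows up to 3 counts, or 1.45 and 1.23 CPM before scaling, a limit that covers counting error only. At 3 h it held 3.25, 1.43 and 3.73 CPM under heat, against 20.8, 17.0 and 8.51 CPM in control libraries (-2.44 ± 0.56, adjusted p = 0.0422). At 6 h it held 3.50, 1.66 and 1.87 CPM under heat, against 16.2, 9.94 and 19.3 CPM in control libraries (-2.64 ± 0.54, adjusted p = 0.0158). Heat was below control in every library at every duration, and this version passed the count filter through control libraries alone at each. The call at 1 h was lost without heat replicate 1 (adjusted p = 0.0963) or control replicates 2 (0.0591) or 3 (0.0656), that at 3 h without any 1 library other than control replicate 3 (0.0897 to 0.152) and with scaling to implied library totals (0.0512), and that at 6 h without control replicates 1 (0.0744) or 3 (0.0801). Without heat 1 h replicate 3 the heat group held no count, and the fitted value of -8.16 then depends on the prior count.

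The full precursor stretch held 0.811, 2.39 and 4.26 CPM in the heat libraries of 3 h, against 25.5, 39.2 and 19.6 CPM in the control libraries (-3.52 ± 0.57, adjusted p = 0.00986), a call that held under all 13 alternatives. There it passed the count filter through control libraries alone. At 1 h it was at -2.26 ± 0.66 (adjusted p = 0.163) and at 6 h at -1.76 ± 0.49 (adjusted p = 0.0507), with ranges apart at each. It was called at 1 h without heat replicate 2 (-3.08, adjusted p = 0.0463) and at 6 h without heat replicate 2 (-2.47, adjusted p = 0.00980). DESeq2 called it at both (adjusted p = 0.0157 at 1 h and 0.0172 at 6 h), as did the fit with no filter (0.00185 and 0.0258), and at 6 h also a filter of at least 10 CPM in 3 libraries (0.0494). Summed over all 10 sequences, the stretch stood at 5.51 ± 3.47 CPM in heat and 37.5 ± 4.78 CPM in control libraries of 1 h (SD, n = 3 each). It stood at 6.09 ± 1.97 CPM in heat and 47.6 ± 15.5 CPM in control libraries of 3 h, and at 9.05 ± 4.04 CPM in heat and 40.3 ± 4.47 CPM in control libraries of 6 h. As a share of miR319 counts it was 0.0319%, 0.0352% and 0.0426% in the heat libraries of 1, 3 and 6 h, against 0.263%, 0.360% and 0.325% in the control libraries. The ranges of this share were apart at each duration (exact p = 0.1, and 0.258 after adjustment over 93 shares), including 1 h, where those of the family total overlapped. The origin of the stretch in the barley genome was not analysed here.

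**Figure D5:**
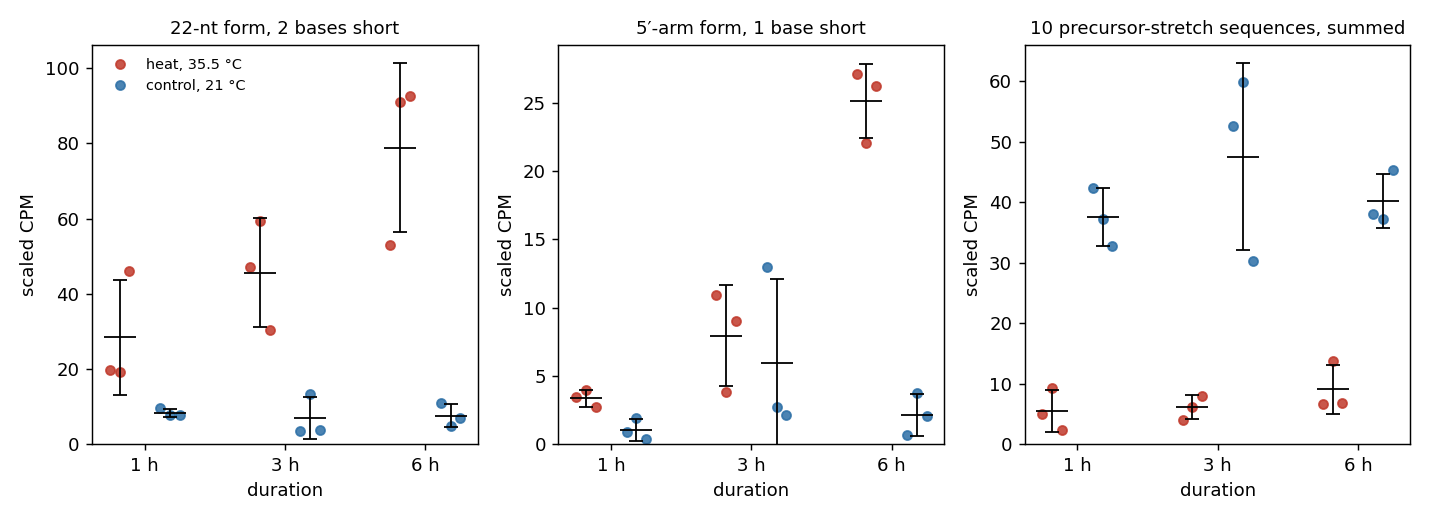
Scaled CPM (vertical axes, each panel with its own scale from 0) per library of the 22-nt form 2 bases short (left), the 5′-arm form 1 base short (middle) and the sum of the 10 precursor-stretch sequences (right) by duration, heat left of control, with mean and SD (n = 3). The left panel has heat above control at each duration, the middle one at 1 and 6 h, and the right one has heat below control at each duration.

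At 3 h the treatment and the lane cannot be told apart. Some of the named forms are therefore also given within lanes, in the fit of all 18 libraries. These contrasts are between durations within 1 treatment, so they cannot separate lane from treatment at 3 h. None of the 961 sequences tested was called in either contrast. For the 22-nt form 2 bases short, heat 3 h minus heat 1 h on lane 1 was 0.63 ± 0.43 (adjusted p = 0.825), and control 6 h minus control 3 h on lane 2 was 0.01 ± 0.53 (adjusted p = 0.986). For the precursor stretch the same contrasts were -0.89 ± 0.73 (adjusted p = 0.875) and -0.42 ± 0.56 (adjusted p = 0.924). For its version 1 base short they were 1.94 ± 0.83 (adjusted p = 0.707) and -0.17 ± 0.58 (adjusted p = 0.974). For the 5′-arm form 1 base short they were 1.18 ± 0.66 (adjusted p = 0.774) and -1.57 ± 0.75 (adjusted p = 0.785). At 1 h and at 6 h, heat and control libraries shared a lane. The 22-nt form 2 bases short and the precursor stretch had the same directions there as at 3 h. Averaged over the 3 durations, the heat effect in that fit was 2.63 ± 0.28 for the 22-nt form 2 bases short (adjusted p = 9.98e-07). It was -2.50 ± 0.37 for the precursor stretch (adjusted p = 5.93e-05), with 15.1% of 961 sequences called. These averages include the 3 h effect, so the lane is not separated from heat in them. The count filter of that fit can also be met by 1 group alone. The difference of heat effects between 6 h and 1 h was 1.74 ± 0.67 for that shortened form, with adjusted p = 0.428.

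By locus letter, members named MIR319b alone held 97.1% ± 0.32 of miR319 counts in heat and 96.7% ± 0.06 in control libraries of 6 h, because the 22-nt form carries that name. Members named with both MIR319a and MIR319b were mainly the precursor stretch, at 0.0513% ± 0.0132 in heat and 0.333% ± 0.088 in control libraries of 6 h. A letter therefore marks a form here more than a locus. By length, 22-nt reads held 87.2% ± 1.22 of miR319 counts in heat and 86.8% ± 0.64 in control libraries of 6 h, with overlapping ranges. The share of 20-nt reads was 2.11% ± 0.19 in heat and 1.69% ± 0.29 in control libraries of 6 h, with ranges apart (SD, n = 3 each; exact p = 0.1, and 0.258 after adjustment over 93 shares). It overlapped at 3 h, with 1.59% ± 0.19 in heat and 1.44% ± 0.18 in control libraries, and at 1 h, with 1.43% ± 0.094 in heat and 1.38% ± 0.075 in control libraries.

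Other families with a known role in leaf growth were listed beside miR319: miR159, miR164 (which targets NAC mRNAs), miR165 and miR166 (HD-ZIP class III mRNAs), miR390 (which starts trans-acting siRNA production from TAS RNAs) and miR396 (growth-regulating factor mRNAs). Of their sequences tested, 1 of 190 was called lower at 1 h, 3 of 173 higher and 2 lower at 3 h, and 15 of 174 higher and 5 lower at 6 h, against the background shares given above. At 6 h the miR165 total was higher, at 1731 ± 623 CPM in heat and 598 ± 110 CPM in control libraries (1.53 ± 0.32, adjusted p = 0.0225), and the miR166 total lower, at 292559 ± 1276 CPM in heat and 355998 ± 22173 CPM in control libraries (-0.28 ± 0.06, adjusted p = 0.0225). These families are near-identical in sequence, so their split is uncertain. miR396 was at 0.26 ± 0.09 (adjusted p = 0.120), miR159 at -0.34 ± 0.25 (adjusted p = 0.499), miR164 at -0.05 ± 0.22 (adjusted p = 0.932) and miR390 at 0.16 ± 0.21 (adjusted p = 0.742). The difference between miR319 and these families was not tested.

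Among 62 families with a mean of at least 10 CPM, the 5 whose 6 centred group means of log2 CPM were nearest those of miR319 were miR9779, miR9863, miR5083, miR160 and miR396. Their root mean square differences from miR319 were 0.13, 0.14, 0.17, 0.19 and 0.20 on the log2 scale. The centred values of miR319 were 0.23, 0.22 and 0.30 in heat and 0.01, -0.30 and -0.46 in control at 1, 3 and 6 h. The control means thus differed more between durations than the heat means did. This difference in spread was not tested. The control libraries of 1 h were on lane 1 and those of 3 and 6 h on lane 2. The heat libraries of 1 and 3 h were on lane 1 and those of 6 h on lane 2.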

How the data were processed

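Small RNA libraries of barley shoots were made with the TruSeq Small RNA kit, per the labels' protocols. The sources used here name no aligner, trimming tool or annotation source, though the file headers mark the reads as trimmed. The authors deposited 1 table per duration, each with whole-number counts per distinct annotated sequence and RPM (counts scaled to the library's reads) in every library, per the file headers. RPM was used to obtain the implied library totals. No listed sequence had a mismatch to its annotated precursor. Another 18 per-sample columns, named expression values, were not used, and neither was the authors' own test. Coordinates are not given, for lack of a genome.

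Sequence and family counts went through edgeR 4.0.16 under R 4.3.3 (TMM, filterByExpr with a minimum count of 10 and total of 15, quasi-likelihood F test) on each whole table and on 18 libraries for contrasts between durations. DESeq2 1.42.0 was an alternative. The procedure was tested on simulated counts with 1 spread shared by all sequences and no outlying library, which gives no error rate for these data. Shares used exact two-sided permutation tests in scipy 1.17.1. Replicates of a group differed by far more than sampling noise (chi-square per degree of freedom 13.7 to 300), and replicate numbers follow the order of deposition, so they pair nothing.

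Sequences named were the 10 with the highest mean CPM over 18 libraries, each one called at any duration and the most abundant of each match type. Families named were the 5 nearest in group means and a fixed list of leaf growth families. The members and lists were chosen with earlier results of these data known. Alternatives were other scalings, filters, 1 fit of 18 libraries, and leaving out each library.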

Additional observations from a re-analysis of the deposited data

How the results depend on the processing

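The family total kept its direction at 1, 3 and 6 h under all 16 alternatives at each duration, with log2 fold changes of 0.04 to 0.37 at 1 h, 0.19 to 0.64 at 3 h and 0.48 to 1.01 at 6 h. At 6 h its call was lost when the library totals implied by RPM replaced the scaling (1.01, adjusted p = 0.125), without the most abundant sequence (0.65, adjusted p = 0.0557) and with only the annotated mature arms (0.48, adjusted p = 0.159), and leaving out 1 library gave 0.59 to 0.83. The scaling by implied totals moved the median of all sequences to -0.18 at 1 h and 0.25 at 6 h, and the scaling by table totals without factors moved it to -0.29 at 3 h. The number of called members was 3 at 1 h with DESeq2 and with no filter, against 1, and leaving out 1 library gave 0 to 3 at 1 h, 1 to 3 at 3 h and 3 to 7 at 6 h. Heat 3 h minus heat 1 h changed sign to 0.18 with implied totals, and leaving out 1 library gave -0.20 to 0.077. The mean heat effect over the durations was called under all 22 alternatives, none of which left out the 3 h comparison. The rise in the share of 3′-arm reads ending short was 3.23, 12.3 and 12.6 percentage points at 1, 3 and 6 h when the most abundant sequence was left out, since the denominator is then smaller, against 0.45, 1.31 and 1.45 with it.

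Values that changed sign were of forms not called. With implied totals, the form starting 1 base inside the mature form stood at -0.060 at 1 h and the 5′-arm form at 0.038 at 3 h. Without library factors, the 21-nt mature form stood at -0.051 and its version 1 base longer at -0.19 at 3 h. With 1 library left out, the 5′-arm form ranged over -0.21 to 0.25 at 3 h, the longer version of the mature form over -0.33 to 0.071 at 1 h and -0.14 to 0.23 at 3 h, and the longer version of the 22-nt form over -0.31 to 0.032 at 1 h. The cause was not tested. Using only barley annotations gave no value, since no member has one, and the share of the most abundant sequence has no value without that sequence. No paired analysis was possible because the labels carry no replicate number. Sequences under about 10 CPM rest on few counts, and the depth then limits what can be called.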
